A study of Homo sapiens with 4 samples.

Results

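The cultures described here are 5 hashtag samples of OVCAR5, a human ovarian carcinoma cell line, in which interferon-induced genes ran from high to low. They are called HTO5/HTO8, HTO6/HTO8, HTO7/HTO8, HTO8/HTO9 and HTO1/HTO9 after the pair of antibody-borne oligonucleotide tags (hashtags, HTO) that marks their cells. They are set against HTO4/HTO8, which carries the HTO8 tag as 4 of the 5 do. The 5 cultures held 883 cells and HTO4/HTO8 held 165 cells, of 5298 cells assigned to 24 hashtag samples in all.

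In the study, OVCAR5 cells in culture received supernatant from tumor cells grown together with T cells, undiluted, diluted 5, 25, 125 or 625 times, or not at all, for 2, 6, 12 or 24 h. All 24 conditions were pooled and sequenced as 1 pool from the 3′ ends of RNA in single cells caught in droplets, with 2 gene-expression and 2 hashtag libraries. No source used here says which tag pair marks which dilution or time, so no sample is given one. Each hashtag sample is 1 culture, without a replicate, so no value was tested, and every interval covers counting error only.

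A cell belonged to a hashtag sample when its barcode had 1000 genes or more, no more than 20% of its UMIs (unique molecular identifiers, each 1 captured RNA molecule) in mitochondrial genes, and both top tags at 3 times the third tag or more. The 5 samples, their order and HTO4/HTO8 as the sample to set them against were chosen by the measured levels of interferon-induced genes, not by a label. All values below come from these same samples, so they are a description of them and support no statement on the exposure. Along the limits, the summed level of the markers IDO1, CXCL11, SAA2 and WARS was 3556 CPM (counts in each 1e6 UMIs of a sample) in the 55 cells whose second tag was 3 to 4 times the third and 2962 CPM in the 51 excluded cells at 2 to 3 times. It was 4557 CPM in the 32 cells with 18 to 20% mitochondrial UMIs and 3168 CPM in the 20 excluded cells with 20 to 22%, while only 2 cells had 1000 to 1100 genes and 4 excluded barcodes had 900 or more but under 1000.

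Interferon gamma, a cytokine of activated T cells, acts through its receptor and the kinases JAK1 and JAK2 on genes with GAS sites, IRF1 among them. IRF1 and other factors of its family bind ISRE sites in genes of antigen presentation and antiviral defence. TNF and interleukin 1 act through NF-κB, which drives cytokine genes and genes for its own inhibitors. In tumor cells these pathways raise chemokines that draw T cells, display of peptides to T cells, and enzymes such as IDO1 that limit T cell growth.

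The samples differed in depth and mitochondrial share, and the mitochondrial share moved with the order. The median depth was 10714 UMIs per cell in HTO5/HTO8, 12176 in HTO6/HTO8, 13482 in HTO7/HTO8, 12432 in HTO8/HTO9 and 13553.5 in HTO1/HTO9, against 13543 in HTO4/HTO8. The median mitochondrial share was 12.8% in HTO5/HTO8, 11.8% in HTO6/HTO8, 11.7% in HTO7/HTO8, 11.4% in HTO8/HTO9 and 10.4% in HTO1/HTO9, against 9.81% in HTO4/HTO8, and the share of clearly tagged barcodes that passed the filters was 48.7 to 65.1% in the 5 samples, against 58.1% in HTO4/HTO8. Among cells of 2000 or more genes and no more than 10% mitochondrial UMIs, the difference from HTO4/HTO8 in log2(CPM + 10) in HTO5/HTO8 was 6.52 for IDO1, against 6.81 in all cells, and 5.24 for SAA2, against 5.34. In the same cells it was 4.17 for CXCL9, against 5.37 in all cells, 3.39 for CXCL1, against 4.04, 3.08 for C15orf48, against 3.85, and 3.09 for CCL5, against 3.86. Sample totals lay between 1863154 and 2677857 UMIs. Of the epithelial markers, KRT18 had 1124 CPM in HTO5/HTO8, 1450.3 in HTO6/HTO8, 1712 in HTO7/HTO8, 1724 in HTO8/HTO9 and 1874 in HTO1/HTO9, against 1934 CPM in HTO4/HTO8, whereas MUC16 and WT1 were at or near 0 in all 6. T cell markers summed to 0 to 6.98 CPM, with 8 of 11 at 0 in all 6, PTPRC, CD3E and IFNG among them. Myeloid markers summed to 48.2 CPM in HTO5/HTO8 and 24.2 in HTO1/HTO9, against 23.5 CPM in HTO4/HTO8, nearly all of it CD68, with CSF1R and LYZ at or near 0.

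The number of higher genes and the number of lower genes both declined along the series. A gene was called when its log2(CPM + 10) differed by 1 or more (2-fold) from HTO4/HTO8, among the 5756 genes that averaged 20 CPM or more over the 6 samples, called tested below, although no statistical test was possible. In HTO5/HTO8, 256 genes were higher (4.45% of those tested) and 215 lower (3.74%). In HTO6/HTO8, 221 were higher (3.84%) and 53 lower (0.921%). In HTO7/HTO8, 167 were higher (2.9%) and 7 lower (0.122%). In HTO8/HTO9, 126 were higher (2.19%) and 3 lower (0.0521%). In HTO1/HTO9, 87 were higher (1.51%) and 1 lower (0.0174%). The median of all genes tested lay at -0.22 on the log2 scale in HTO5/HTO8, -0.12 in HTO6/HTO8 and between -0.08 and -0.04 in the other 3 samples. With median-of-ratios size factors, which move that median to -0.04 in HTO5/HTO8, the calls there were 329 higher and 101 lower, so that 76.5% rather than 54.4% of calls were higher. Other settings turned the balance in HTO5/HTO8 round, with 322 higher and 440 lower at a pseudocount of 1 CPM and 287 higher and 402 lower with each cell thinned to 3000 UMIs, so which direction had more calls there depends on the setting. The lower genes of HTO5/HTO8 are read below against that median. Counts of list members given below are to be set beside the shares of all tested genes in the same sample.

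The sets of higher genes were largely nested. Of the 221 genes higher in HTO6/HTO8, 198 were also higher in HTO5/HTO8, as were 154 of 167 in HTO7/HTO8, 117 of 126 in HTO8/HTO9 and 85 of 87 in HTO1/HTO9. In all 5 samples 83 genes were higher, and 60 of these were in 1 of 27 pathway lists drawn up for this tissue and exposure. Of the 5756 genes tested, 404 were in a list. Sharing HTO4/HTO8 makes the 5 comparisons dependent, so the overlap is given as a count alone. Of the 215 genes lower in HTO5/HTO8, 172 were lower there alone.

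The 4 marker genes fell away along the series in different ways. IDO1 (ENSG00000131203, chromosome 8, 39902275 to 39928444; GENCODE 29, GRCh38), the enzyme that starts tryptophan breakdown, had 2244 CPM in HTO5/HTO8, 1583 in HTO6/HTO8, 1157 in HTO7/HTO8, 616 in HTO8/HTO9 and 296 in HTO1/HTO9, against 10.1 CPM in HTO4/HTO8. Its ratio to HTO4/HTO8 was 223 (95% interval 149 to 348) in HTO5/HTO8 and 29.4 (19.6 to 46.2) in HTO1/HTO9, and that last step to HTO4/HTO8 was larger than any between neighbours among the 5. CXCL11 (ENSG00000169248, chromosome 4, 76033682 to 76041415), a ligand of the T cell chemokine receptor CXCR3, had 1095 CPM in HTO5/HTO8, 979 in HTO6/HTO8, 576 in HTO7/HTO8, 195 in HTO8/HTO9 and 44.3 in HTO1/HTO9, against 7.14 CPM in HTO4/HTO8. Its ratio was 153 (95.6 to 264) in HTO5/HTO8 and 6.21 (3.702 to 11.04) in HTO1/HTO9, so that far less of it remained at the weak end than of IDO1. SAA2 (ENSG00000134339, chromosome 11, 18239223 to 18248643), a serum amyloid A of the acute-phase response, had 903 CPM in HTO5/HTO8, 639 in HTO6/HTO8, 261 in HTO7/HTO8, 109.5 in HTO8/HTO9 and 47.2 in HTO1/HTO9, against 12.6 CPM in HTO4/HTO8, a ratio of 71.7 (50.1 to 106) in HTO5/HTO8. The level of SAA2 in HTO5/HTO8 lay above that of every other hashtag sample of the pool, the 18 outside the series reaching 649 CPM. The 4 markers summed were not highest there: HTO5/HTO8 ranked 2 of 24 with 6193 CPM, after HTO3/HTO9 with 7159.5 CPM. WARS (ENSG00000140105, chromosome 14, 100333788 to 100376805; WARS1 in RefSeq), which loads tryptophan onto its tRNA, had 1951 CPM in HTO5/HTO8, 1142 in HTO6/HTO8, 1098 in HTO7/HTO8, 853 in HTO8/HTO9 and 679 in HTO1/HTO9, against 49.98 CPM in HTO4/HTO8, a ratio of 39.04 (32.6 to 47.2) in HTO5/HTO8 and 13.6 (11.3 to 16.5) in HTO1/HTO9. WARS thus stayed at 679 CPM in HTO1/HTO9, where SAA2 was down to 47.2 CPM. SAA2 and SAA1 are near-identical, so reads may be divided between them.

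**Figure D1:**
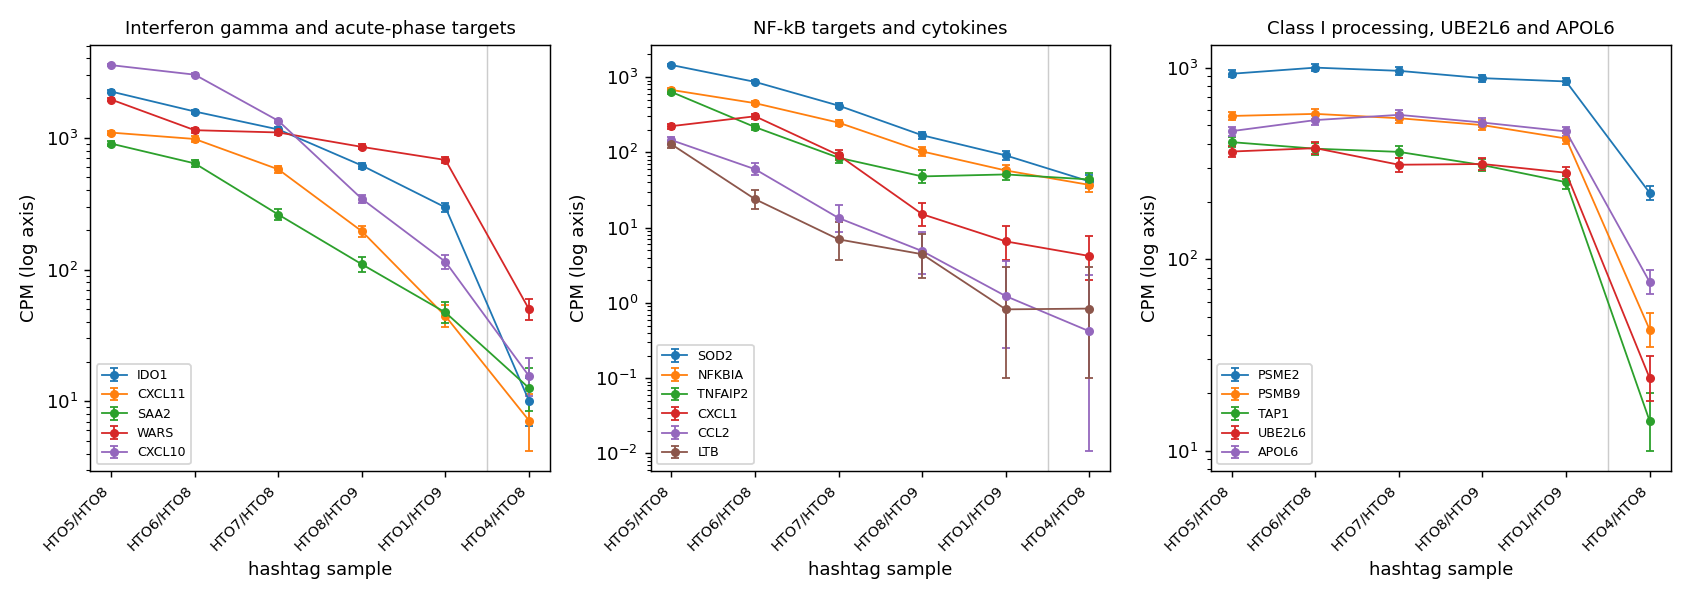
CPM (log axis) of 16 genes in the 6 hashtag samples, in 3 panels, with exact Poisson intervals of 95% as bars; the vertical line sets HTO4/HTO8 apart. CXCL10 and CXCL11 drop by more along the series than IDO1 and WARS, NFKBIA and CXCL1 come close to HTO4/HTO8 at HTO1/HTO9, and PSME2 stays at 848 CPM in HTO1/HTO9, against 222 CPM in HTO4/HTO8.

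To compare such paths, the part of the HTO5/HTO8 difference that was kept in another sample was taken on the log2(CPM + 10) scale: 100% is the difference of HTO5/HTO8 from HTO4/HTO8, 0% is none. It was computed for the 112 genes that were at least 4-fold higher in HTO5/HTO8. Their median was 90.5% in HTO6/HTO8, 74.5% in HTO7/HTO8, 57.5% in HTO8/HTO9 and 38.7% in HTO1/HTO9. Individual genes spread from -16.1% to 99.8% at HTO1/HTO9. In 45 genes at least 50% was kept there. In the others it first dropped under 50% at HTO6/HTO8 for 3 genes, at HTO7/HTO8 for 20, at HTO8/HTO9 for 20 and at HTO1/HTO9 for 24. The largest single step on the log2 scale was the one from HTO4/HTO8 to HTO1/HTO9 in 70 of the 112 genes. Of the 112, 88 were highest in HTO5/HTO8, 20 in HTO6/HTO8, 3 in HTO7/HTO8 and 1 in HTO8/HTO9. The part kept depends on the 10 CPM added, for genes near 0 CPM in HTO4/HTO8 in particular. GBP2, GBP5 and APOL3 kept under 50% at HTO1/HTO9. At a pseudocount of 1 CPM their log2 differences were 6.86, 6.99 and 5.55 in HTO5/HTO8 and 4.09, 4.25 and 3.14 in HTO1/HTO9. All 3 then kept over 50%. How many of the 112 genes change sides in this way was not counted.

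**Figure D2:**
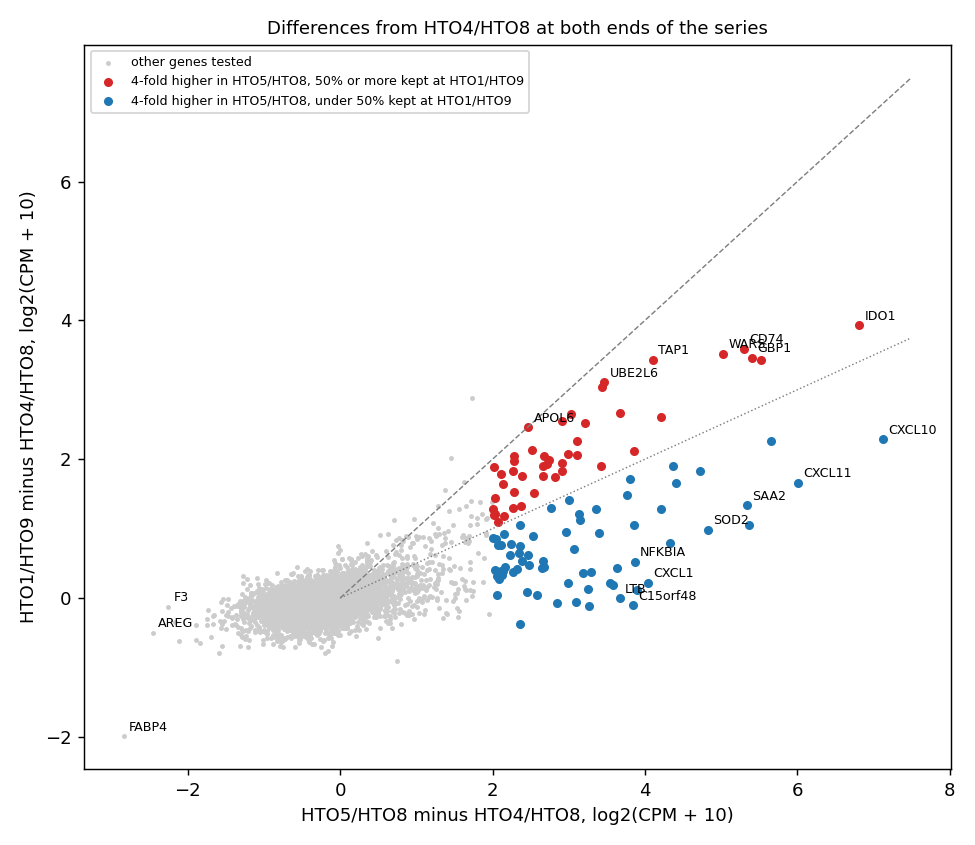
Difference from HTO4/HTO8 in log2(CPM + 10) for 5756 genes, HTO5/HTO8 on the x axis and HTO1/HTO9 on the y axis. The dashed line marks 100% of the difference kept and the dotted line 50%: the 45 red genes lie above the dotted line and the other 67 genes that were 4-fold higher in HTO5/HTO8, in blue, below it.

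Chemokines that bind CXCR3 had the largest ratio to HTO4/HTO8 of the 27 lists in HTO5/HTO8, HTO6/HTO8 and HTO7/HTO8, but not in HTO8/HTO9 and HTO1/HTO9. CXCL9, CXCL10 and CXCL11, all 3 higher in all 5 samples, summed to 5179.9 CPM in HTO5/HTO8, 4247 in HTO6/HTO8, 2067 in HTO7/HTO8, 561 in HTO8/HTO9 and 176 in HTO1/HTO9, against 25.6 CPM in HTO4/HTO8. For this sum HTO5/HTO8 ranked 2 of the 24 hashtag samples, after HTO3/HTO9 with 6324 CPM. CXCL10 (ENSG00000169245, chromosome 4, 76021117 to 76023497) had 3559.6 CPM in HTO5/HTO8, 3014 in HTO6/HTO8, 1346 in HTO7/HTO8, 344 in HTO8/HTO9 and 114 in HTO1/HTO9, against 15.5 CPM in HTO4/HTO8, a ratio of 229 (166 to 326) in HTO5/HTO8. Between HTO5/HTO8 and HTO6/HTO8 it differed by a ratio of only 1.18 (1.14 to 1.22), while HTO7/HTO8 was 3.92 (3.61 to 4.25) times HTO8/HTO9. CXCL9 had 525 CPM in HTO5/HTO8, 254 in HTO6/HTO8, 145 in HTO7/HTO8, 21.7 in HTO8/HTO9 and 16.8 in HTO1/HTO9, against 2.94 CPM in HTO4/HTO8. For CXCL9, HTO7/HTO8 was 6.69 (4.92 to 9.27) times HTO8/HTO9. The part kept at HTO1/HTO9 was 32.1% for CXCL10, 27.7% for CXCL11 and 19.6% for CXCL9.

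Tryptophan enzymes and guanylate-binding proteins kept more. Of 6 tryptophan enzymes in the list, 2 were tested, IDO1 and WARS, and they kept 57.7% and 69.99% at HTO1/HTO9. The guanylate-binding proteins are GTPases of cell-autonomous defence against microbes, and all 5 tested were higher in all 5 samples. They summed to 1931 CPM in HTO5/HTO8, 1452 in HTO6/HTO8, 1222 in HTO7/HTO8, 805 in HTO8/HTO9 and 469 in HTO1/HTO9, against 32.8 CPM in HTO4/HTO8. For the sums of tryptophan enzymes and of guanylate-binding proteins HTO5/HTO8 ranked 2 of 24, each time after HTO3/HTO9. GBP1 had 790.2 CPM in HTO5/HTO8, 613 in HTO6/HTO8, 547 in HTO7/HTO8, 354 in HTO8/HTO9 and 197 in HTO1/HTO9, against 8.82 CPM in HTO4/HTO8. GBP4 had 603 CPM in HTO5/HTO8, 521 in HTO6/HTO8, 369 in HTO7/HTO8, 248 in HTO8/HTO9 and 134 in HTO1/HTO9, against 3.36 CPM in HTO4/HTO8. Both were below 9 CPM in HTO4/HTO8 and kept 63.99% and 62.1%. GBP5, which promotes inflammasome activity, had 126 CPM in HTO5/HTO8, 54.2 in HTO6/HTO8, 50.99 in HTO7/HTO8, 31.5 in HTO8/HTO9 and 18.1 in HTO1/HTO9, against 0 CPM in HTO4/HTO8. No UMI of it was seen in HTO4/HTO8, so its level in HTO5/HTO8 was at least 99.9-fold higher, with 3 counts taken as the floor.

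Among interferon signalling genes the transcription factors IRF1 and IRF2 were higher along the whole series and the receptor chain IFNGR2 was not. Of 13 tested, 8 were higher in HTO5/HTO8 and 4 in HTO1/HTO9, none was lower, and the list's median log2 difference was 1.29 in HTO5/HTO8, 1.06 in HTO6/HTO8, 0.71 in HTO7/HTO8, 0.60 in HTO8/HTO9 and 0.28 in HTO1/HTO9. IRF1, a transcription factor induced by interferon, had 1480.3 CPM in HTO5/HTO8, 1134 in HTO6/HTO8, 901 in HTO7/HTO8, 739 in HTO8/HTO9 and 477 in HTO1/HTO9, against 70.1 CPM in HTO4/HTO8, and kept 61.7%. SOCS1, a feedback inhibitor of JAK kinases, had 80.7 CPM in HTO5/HTO8, 65.2 in HTO6/HTO8, 44.5 in HTO7/HTO8, 19.96 in HTO8/HTO9 and 9.44 in HTO1/HTO9, against 4.20 CPM in HTO4/HTO8. SOCS1 kept 16.9% at HTO1/HTO9, far less than IRF1. IRF2 had 36.2 CPM in HTO5/HTO8 and 19.7 in HTO1/HTO9, against 3.36 CPM in HTO4/HTO8. IFNGR2 was higher in HTO5/HTO8 alone, with 118 CPM in HTO5/HTO8 and 32.4 in HTO1/HTO9, against 39.1 CPM in HTO4/HTO8. The kinase JAK1 did not reach 2-fold, with 109 CPM in HTO5/HTO8 and 64.8 in HTO1/HTO9, against 66.8 CPM in HTO4/HTO8.

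The next sequences are the 250 bases before the start of 5 genes, taken from RefSeq (GRCh38.p14) and read 5′ to 3′ on the gene's strand. They are shown because these genes carry the interferon part of the series with different paths. Capitals mark matches, on either strand, to a GAS motif (TTC and GAA separated by any 3 bases), an ISRE motif (GAAA and GAAA separated by any 2) or a κB motif (GGG and TTCC separated by any 3). No 2 matches of different motifs overlap in the windows shown.
CXCL10 (chr4:76023498-76023747, minus strand): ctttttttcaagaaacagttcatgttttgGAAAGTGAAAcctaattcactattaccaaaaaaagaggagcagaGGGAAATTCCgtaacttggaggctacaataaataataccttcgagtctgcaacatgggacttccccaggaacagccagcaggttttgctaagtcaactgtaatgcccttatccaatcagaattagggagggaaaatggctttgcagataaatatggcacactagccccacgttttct
CXCL11 (chr4:76036071-76036320, minus strand): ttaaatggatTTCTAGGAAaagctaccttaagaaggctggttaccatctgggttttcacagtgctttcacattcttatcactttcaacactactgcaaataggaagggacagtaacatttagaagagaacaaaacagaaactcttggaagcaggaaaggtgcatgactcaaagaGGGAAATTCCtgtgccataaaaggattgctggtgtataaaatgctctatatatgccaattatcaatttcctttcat
WARS (chr14:100375348-100375597, minus strand): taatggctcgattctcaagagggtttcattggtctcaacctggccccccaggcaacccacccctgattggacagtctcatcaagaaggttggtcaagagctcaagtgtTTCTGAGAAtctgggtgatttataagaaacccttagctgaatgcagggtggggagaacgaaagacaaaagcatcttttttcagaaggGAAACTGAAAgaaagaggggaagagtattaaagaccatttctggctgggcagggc
IRF1 (chr5:132490774-132491023, minus strand): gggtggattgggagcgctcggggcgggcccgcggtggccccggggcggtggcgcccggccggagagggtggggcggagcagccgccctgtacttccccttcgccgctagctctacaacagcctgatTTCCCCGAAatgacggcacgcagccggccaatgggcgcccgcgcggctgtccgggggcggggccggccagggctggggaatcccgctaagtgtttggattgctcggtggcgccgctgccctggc
PSME2 (chr14:24146611-24146860, minus strand): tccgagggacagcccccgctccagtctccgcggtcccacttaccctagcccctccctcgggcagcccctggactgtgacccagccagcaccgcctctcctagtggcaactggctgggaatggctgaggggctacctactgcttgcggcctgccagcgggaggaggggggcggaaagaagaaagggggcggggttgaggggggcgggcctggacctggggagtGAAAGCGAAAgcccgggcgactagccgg
CXCL10 holds an ISRE match and a κB match, and CXCL11 a GAS match and a κB match. The WARS window before the second RefSeq start holds a GAS and an ISRE match and no κB match, IRF1 a GAS match and PSME2 an ISRE match. RefSeq lists another WARS start, whose window holds none of the 3 motifs. Among 35116 promoter windows of this length in the RefSeq table, 6.57% hold a GAS match, 3.02% an ISRE match and 5.67% a κB match. Of 177 named genes 128 had a window. Among the retained genes (50% or more kept at HTO1/HTO9), 16 had one: 7 held a GAS match, 8 an ISRE match and 2 a κB match. Among 19 named genes of intermediate paths, 2 held a GAS match, 5 an ISRE match and 9 a κB match. A gene counts where any of its windows matched, whereas the shares of the RefSeq table count single windows. A match is a sequence only. The genes were chosen by their levels, many of them from within the pathway lists, and these counts were not tested.

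MHC class I genes, which cut, carry and display peptides to CD8 T cells, differed little between the 5 samples. Their sum was 11349 CPM in HTO5/HTO8, 11163 in HTO6/HTO8, 10462 in HTO7/HTO8, 9694 in HTO8/HTO9 and 8701 in HTO1/HTO9, against 4069 CPM in HTO4/HTO8, a ratio of 2.79 (95% interval 2.73 to 2.85) in HTO5/HTO8 and 2.14 (2.09 to 2.19) in HTO1/HTO9. Of 15 tested members, the higher ones numbered 12 in HTO5/HTO8, 13 in HTO6/HTO8, 12 in HTO7/HTO8, 12 in HTO8/HTO9 and 9 in HTO1/HTO9. TAP1, a subunit of the peptide transporter, had 409 CPM in HTO5/HTO8, 377 in HTO6/HTO8, 363 in HTO7/HTO8, 310 in HTO8/HTO9 and 252 in HTO1/HTO9, against 14.3 CPM in HTO4/HTO8, and kept 83.6%. The immunoproteasome subunit PSMB9 had 559.8 CPM in HTO5/HTO8, 574 in HTO6/HTO8, 545 in HTO7/HTO8, 502 in HTO8/HTO9 and 427 in HTO1/HTO9, against 42.8 CPM in HTO4/HTO8, and kept 88.8%. PSME2, a subunit of the proteasome activator PA28, had 930.2 CPM in HTO5/HTO8, 1001 in HTO6/HTO8, 963 in HTO7/HTO8, 882 in HTO8/HTO9 and 848 in HTO1/HTO9, against 222 CPM in HTO4/HTO8, and kept 93.5%. PSME2 was nearly level over the 5 samples, while PSMB9 in HTO8/HTO9 was 1.18 (1.08 to 1.28) times HTO1/HTO9. For TAP1 the early steps were within counting error. HTO5/HTO8 was 1.08 (0.986 to 1.19) times HTO6/HTO8, which was 1.04 (0.935 to 1.15) times HTO7/HTO8. PSMB9, PSME2 and TAP1 were all far lower in HTO4/HTO8. B2M, the light chain shared by class I molecules, had 4278 CPM in HTO5/HTO8, 3909 in HTO6/HTO8, 3644 in HTO7/HTO8, 3432 in HTO8/HTO9 and 3110.1 in HTO1/HTO9, against 1594 CPM in HTO4/HTO8. CALR, a chaperone of class I assembly, did not reach 2-fold in any sample, with 743 CPM in HTO5/HTO8 and 739 in HTO1/HTO9, against 718 CPM in HTO4/HTO8.

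MHC class II genes, which display peptides to CD4 T cells, were nearly absent from HTO4/HTO8. Their sum was 1112 CPM in HTO5/HTO8, 1107 in HTO6/HTO8, 854 in HTO7/HTO8, 675 in HTO8/HTO9 and 380.3 in HTO1/HTO9, against 35.7 CPM in HTO4/HTO8. All 7 tested members were higher in HTO5/HTO8, HTO6/HTO8 and HTO7/HTO8, and 6 in HTO8/HTO9 and HTO1/HTO9. CD74, the invariant chain of class II molecules, had 684 CPM in HTO5/HTO8, 661 in HTO6/HTO8, 488 in HTO7/HTO8, 395 in HTO8/HTO9 and 202 in HTO1/HTO9, against 7.56 CPM in HTO4/HTO8, a ratio of 90.5 (95% interval 57.1 to 153) in HTO5/HTO8. CIITA, the master regulator of class II genes, had 41.8 CPM in HTO5/HTO8, 41.3 in HTO6/HTO8, 25.2 in HTO7/HTO8, 27.9 in HTO8/HTO9 and 16.4 in HTO1/HTO9, against 1.68 CPM in HTO4/HTO8. HLA-DRA, a class II chain, had 74.7 CPM in HTO5/HTO8, 78.6 in HTO6/HTO8, 57.4 in HTO7/HTO8, 43.9 in HTO8/HTO9 and 29.9 in HTO1/HTO9, against 1.26 CPM in HTO4/HTO8. HTO5/HTO8 and HTO6/HTO8 were nearly equal in all 3. In the pool CD74 reached 1593 CPM in another hashtag sample, and HTO5/HTO8 ranked 5 of 24.

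Antiviral interferon-stimulated genes were higher along the whole series, with a ratio of 3.93 in HTO5/HTO8 and 2.30 in HTO1/HTO9. Their sum was 7574 CPM in HTO5/HTO8, 6825 in HTO6/HTO8, 5969 in HTO7/HTO8, 5434 in HTO8/HTO9 and 4445 in HTO1/HTO9, against 1929 CPM in HTO4/HTO8, and of 33 tested members the higher ones numbered 25 in HTO5/HTO8, 24 in HTO6/HTO8, 21 in HTO7/HTO8, 23 in HTO8/HTO9 and 18 in HTO1/HTO9. None was lower in any of the 5 samples. UBE2L6, the conjugating enzyme of ISG15, had 365 CPM in HTO5/HTO8, 380 in HTO6/HTO8, 311 in HTO7/HTO8, 314 in HTO8/HTO9 and 283 in HTO1/HTO9, against 23.9 CPM in HTO4/HTO8, and kept 89.7%. PARP14, an ADP-ribosyl transferase, had 462 CPM in HTO5/HTO8, 381 in HTO6/HTO8, 345 in HTO7/HTO8, 316 in HTO8/HTO9 and 224 in HTO1/HTO9, against 26.9 CPM in HTO4/HTO8, and kept 72.5%. ISG20, an exonuclease, had 556 CPM in HTO5/HTO8, 480.5 in HTO6/HTO8, 341 in HTO7/HTO8, 236 in HTO8/HTO9 and 159.6 in HTO1/HTO9, against 28.98 CPM in HTO4/HTO8, and kept 54.9%. ISG15, a ubiquitin-like protein, had 1266 CPM in HTO5/HTO8 and 639 in HTO1/HTO9, against 293 CPM in HTO4/HTO8, and IFI27 had 935 CPM in HTO5/HTO8 and 579 in HTO1/HTO9, against 447 CPM in HTO4/HTO8.

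The apolipoprotein L genes, of which APOL1 kills trypanosomes, were higher along the whole series, all 4 tested in all 5 samples. Their sum was 814 CPM in HTO5/HTO8, 861 in HTO6/HTO8, 889.9 in HTO7/HTO8, 753 in HTO8/HTO9 and 665 in HTO1/HTO9, against 117 CPM in HTO4/HTO8, so that 89.3% of the HTO5/HTO8 difference was kept in HTO1/HTO9. APOL6 had 466 CPM in HTO5/HTO8, 533 in HTO6/HTO8, 567 in HTO7/HTO8, 517 in HTO8/HTO9 and 465 in HTO1/HTO9, against 76.01 CPM in HTO4/HTO8, with HTO7/HTO8 the highest of the 6. APOL3 differed from it, with 85.1 CPM in HTO5/HTO8, 62.7 in HTO6/HTO8, 42.4 in HTO7/HTO8, 23.1 in HTO8/HTO9 and 15.2 in HTO1/HTO9, against 0.8399 CPM in HTO4/HTO8, and kept 38.8%. Checkpoint ligands were few: 3 of 6 tested were higher in HTO5/HTO8, where 4.45% of all tested genes were higher. CD274, which encodes PD-L1, had 66.1 CPM in HTO5/HTO8, 70.1 in HTO6/HTO8, 62.8 in HTO7/HTO8, 42.6 in HTO8/HTO9 and 26.7 in HTO1/HTO9, against 4.62 CPM in HTO4/HTO8. CD47, a signal against phagocytosis, had 261 CPM in HTO5/HTO8, 258 in HTO6/HTO8, 209.9 in HTO7/HTO8, 118 in HTO8/HTO9 and 108 in HTO1/HTO9, against 55.4 CPM in HTO4/HTO8.

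**Figure D3:**
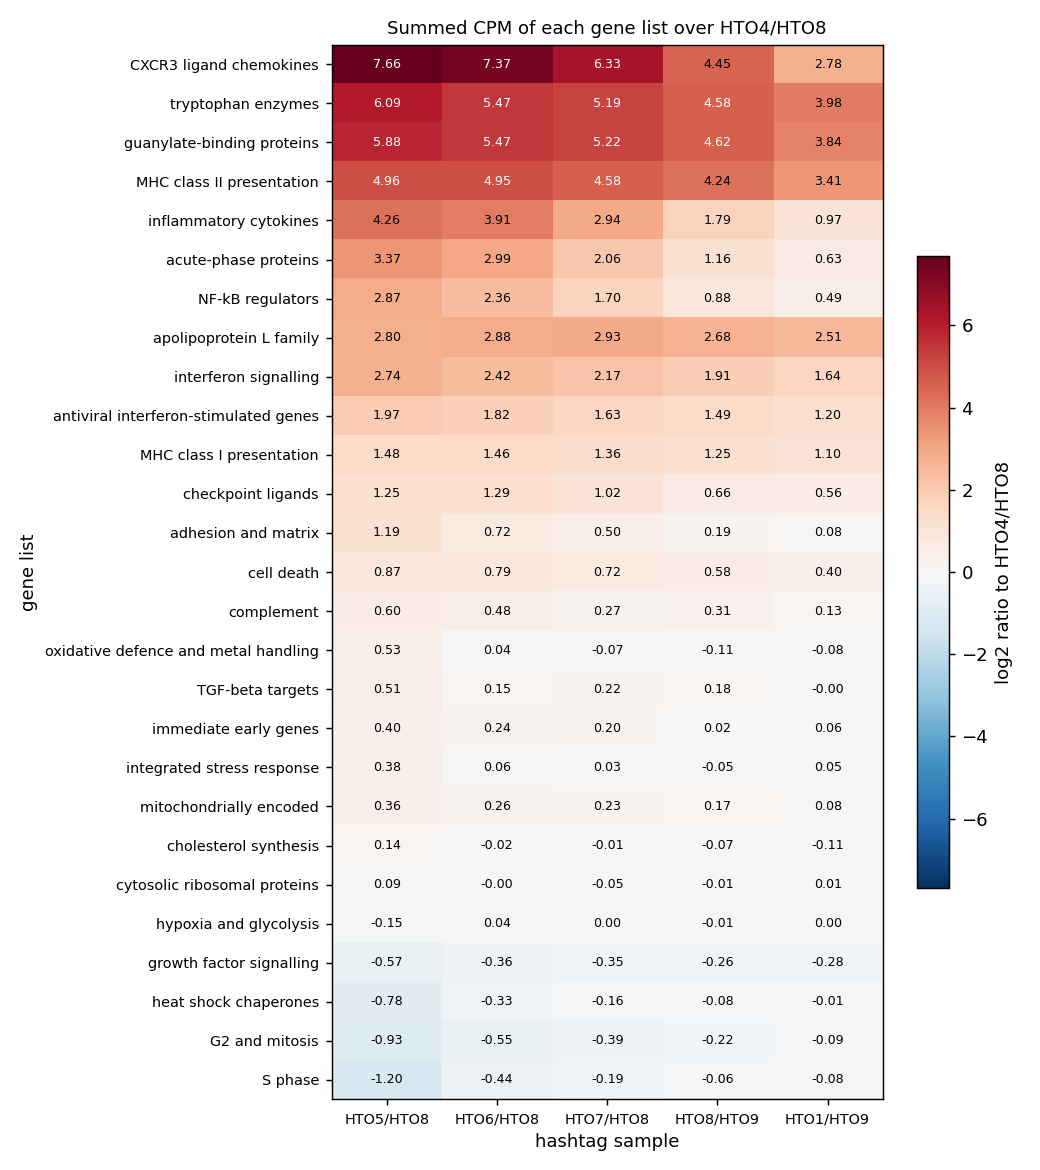
Log2 ratio of the summed CPM of 27 gene lists in each of the 5 samples to HTO4/HTO8, ordered by HTO5/HTO8 and printed in each cell. The list of CXCR3 ligands, with a ratio of 202 in HTO5/HTO8 and 6.85 in HTO1/HTO9, fades along the row, whereas the apolipoprotein L row is almost even, with 6.95 in HTO5/HTO8 and 5.68 in HTO1/HTO9.

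NF-κB regulators that were 4-fold higher in HTO5/HTO8 kept 3.44 to 35.9% at HTO1/HTO9. Such genes of MHC class I kept 57.2 to 93.5% and guanylate-binding proteins 39.5 to 63.99%. The low end of the latter is GBP5, which had no UMI in HTO4/HTO8 and whose part kept depends on the pseudocount. Other interferon genes overlapped the NF-κB regulators: the CXCR3 ligands (19.6 to 32.1%), SOCS1 (16.9%) and the low end of the antiviral genes (34.7 to 89.7%). The NF-κB regulators summed to 3093 CPM in HTO5/HTO8, 2171 in HTO6/HTO8, 1378 in HTO7/HTO8, 777 in HTO8/HTO9 and 594 in HTO1/HTO9, against 423 CPM in HTO4/HTO8, and 16.9% of the difference was kept in HTO1/HTO9. Of 16 tested, the higher ones numbered 11 in HTO5/HTO8, 11 in HTO6/HTO8, 8 in HTO7/HTO8, 3 in HTO8/HTO9 and 2 in HTO1/HTO9. NFKBIA, the inhibitor that holds NF-κB in the cytoplasm, had 675 CPM in HTO5/HTO8, 450.1 in HTO6/HTO8, 248 in HTO7/HTO8, 103 in HTO8/HTO9 and 57.4 in HTO1/HTO9, against 36.96 CPM in HTO4/HTO8, a ratio of 18.3 (95% interval 14.7 to 22.9) in HTO5/HTO8 and 1.55 (1.18 to 2.05) in HTO1/HTO9. TNFAIP2 had 633 CPM in HTO5/HTO8, 216 in HTO6/HTO8, 84.8 in HTO7/HTO8, 47.9 in HTO8/HTO9 and 50.9 in HTO1/HTO9, against 43.7 CPM in HTO4/HTO8, with HTO8/HTO9 and HTO1/HTO9 already near HTO4/HTO8. BIRC3, an inhibitor of apoptosis in TNF receptor complexes, had 471 CPM in HTO5/HTO8, 365 in HTO6/HTO8, 246 in HTO7/HTO8, 105 in HTO8/HTO9 and 52.9 in HTO1/HTO9, against 15.96 CPM in HTO4/HTO8, and kept 30.3%. TNIP1, a partner of the ubiquitin editor TNFAIP3, had 606 CPM in HTO5/HTO8, 542 in HTO6/HTO8, 328 in HTO7/HTO8, 181 in HTO8/HTO9 and 142 in HTO1/HTO9, against 59.6 CPM in HTO4/HTO8, and kept 35.9%. TNIP1 and BIRC3 were the 2 of the list that were higher in all 5 samples.

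Inflammatory cytokines likewise kept little, 22.1% at HTO1/HTO9. They summed to 2753 CPM in HTO5/HTO8, 2171 in HTO6/HTO8, 1106 in HTO7/HTO8, 499 in HTO8/HTO9 and 281 in HTO1/HTO9, against 144 CPM in HTO4/HTO8, and of 14 tested members the higher ones numbered 13 in HTO5/HTO8, 13 in HTO6/HTO8, 9 in HTO7/HTO8, 4 in HTO8/HTO9 and 2 in HTO1/HTO9. The remaining one, IL18, was lower in HTO6/HTO8. IL32, a cytokine of epithelial and T cells, was the only one of them higher in all 5 samples, with 1105 CPM in HTO5/HTO8, 901 in HTO6/HTO8, 646 in HTO7/HTO8, 276 in HTO8/HTO9 and 96.0 in HTO1/HTO9, against 12.2 CPM in HTO4/HTO8. CCL2, which draws monocytes, had 145 CPM in HTO5/HTO8, 59.7 in HTO6/HTO8, 13.4 in HTO7/HTO8, 4.88 in HTO8/HTO9 and 1.23 in HTO1/HTO9, against 0.420 CPM in HTO4/HTO8. Its ratio in HTO5/HTO8, 346 (61.7 to 13697), rests on 1 count in HTO4/HTO8. CCL5, which draws T cells and monocytes, had 178 CPM in HTO5/HTO8, 87.5 in HTO6/HTO8, 18.2 in HTO7/HTO8, 11.5 in HTO8/HTO9 and 16.8 in HTO1/HTO9, against 2.94 CPM in HTO4/HTO8. CXCL1, CXCL2 and CXCL3, near-identical chemokines for neutrophils whose reads may be divided, differed from the rest in their highest sample. CXCL1 had 223 CPM in HTO5/HTO8, 301 in HTO6/HTO8, 91.8 in HTO7/HTO8, 15.1 in HTO8/HTO9 and 6.56 in HTO1/HTO9, against 4.20 CPM in HTO4/HTO8, so that HTO5/HTO8 was 0.7397 (0.6595 to 0.8296) times HTO6/HTO8. CXCL3 had 146 CPM in HTO5/HTO8, 223 in HTO6/HTO8, 68.2 in HTO7/HTO8, 18.2 in HTO8/HTO9 and 7.79 in HTO1/HTO9, against 6.299 CPM in HTO4/HTO8, with HTO5/HTO8 at 0.654 (0.569 to 0.7504) times HTO6/HTO8, and CXCL2 did not differ beyond counting error there, at 0.914 (0.792 to 1.05). HBEGF, a ligand of the EGF receptor, had 163 CPM in HTO5/HTO8 and 50.1 in HTO1/HTO9, against 52.1 CPM in HTO4/HTO8, and 184 CPM in HTO6/HTO8.

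The following windows of 250 bases, also from RefSeq (GRCh38.p14), are from 2 genes that had returned near the HTO4/HTO8 level in HTO1/HTO9, with κB matches in capitals. In CXCL1 a pair of overlapping matches gives 1 run of capitals.
CXCL1 (chr4:73869143-73869392, plus strand): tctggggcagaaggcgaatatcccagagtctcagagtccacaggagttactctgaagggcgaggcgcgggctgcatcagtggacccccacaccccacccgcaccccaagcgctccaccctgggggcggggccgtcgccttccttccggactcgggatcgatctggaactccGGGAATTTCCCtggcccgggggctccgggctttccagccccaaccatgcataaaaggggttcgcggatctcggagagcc
NFKBIA (chr14:35404750-35404999, minus strand): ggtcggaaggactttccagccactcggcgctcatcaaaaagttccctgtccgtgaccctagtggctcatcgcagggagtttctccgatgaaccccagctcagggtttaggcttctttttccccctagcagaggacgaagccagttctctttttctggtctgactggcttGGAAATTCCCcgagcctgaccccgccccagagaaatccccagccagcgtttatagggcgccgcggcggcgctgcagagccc
Neither window holds a GAS or ISRE match.

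A few genes were far higher in HTO5/HTO8 than in HTO6/HTO8. LTB, the membrane anchor of lymphotoxin, had 128 CPM in HTO5/HTO8, 23.9 in HTO6/HTO8, 6.98 in HTO7/HTO8, 4.44 in HTO8/HTO9 and 0.821 in HTO1/HTO9, against 0.8399 CPM in HTO4/HTO8, and its 128 CPM in HTO5/HTO8 was the highest of all 24 hashtag samples. C15orf48, a mitochondrial protein gene induced in inflammation, had 170.3 CPM in HTO5/HTO8, 65.2 in HTO6/HTO8, 24.2 in HTO7/HTO8, 5.77 in HTO8/HTO9 and 1.64 in HTO1/HTO9, against 2.52 CPM in HTO4/HTO8, and still kept 67.2% in HTO6/HTO8. WFDC2, which encodes the ovarian tumor marker HE4, had 84.02 CPM in HTO5/HTO8, 27.4 in HTO6/HTO8, 12.9 in HTO7/HTO8, 14.2 in HTO8/HTO9 and 16 in HTO1/HTO9, against 7.98 CPM in HTO4/HTO8. LCN2, an iron-binding acute-phase protein, had 296 CPM in HTO5/HTO8, 96.99 in HTO6/HTO8, 88.02 in HTO7/HTO8, 55.9 in HTO8/HTO9 and 77.5 in HTO1/HTO9, against 62.2 CPM in HTO4/HTO8. At the pseudocount used above, LTB, WFDC2 and LCN2 were the 3 genes that had kept less than 50% of the difference by HTO6/HTO8. At a pseudocount of 1 CPM the log2 difference of LTB from HTO4/HTO8 was 6.13 in HTO5/HTO8 and 3.76 in HTO6/HTO8. That of WFDC2 was 3.24 in HTO5/HTO8 and 1.66 in HTO6/HTO8. LTB and WFDC2 then kept over 50%, so their place among these 3 genes depends on the pseudocount.

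The acute-phase list as a whole was higher in HTO5/HTO8 than in any other of the 24 hashtag samples. It summed to 2957 CPM in HTO5/HTO8, 2262 in HTO6/HTO8, 1188 in HTO7/HTO8, 639 in HTO8/HTO9 and 442 in HTO1/HTO9, against 285 CPM in HTO4/HTO8. The 18 samples outside the series had 212 to 2620.4 CPM. Of 13 listed genes only 4 were tested. SAA1 had 1442 CPM in HTO5/HTO8, 1345 in HTO6/HTO8, 719 in HTO7/HTO8, 341 in HTO8/HTO9 and 206 in HTO1/HTO9, against 58.4 CPM in HTO4/HTO8, and kept 37.6%. SAA1 was as high in HTO6/HTO8 as in HTO5/HTO8 to within a ratio of 1.07 (1.02 to 1.13), while SAA2 differed there by 1.41 (1.32 to 1.51). PTX3 did not reach 2-fold in any sample, with 185 CPM in HTO5/HTO8 and 103 in HTO1/HTO9, against 144 CPM in HTO4/HTO8. Of the complement list, C3 was higher among 3 tested, with 68.3 CPM in HTO5/HTO8, 43.8 in HTO6/HTO8, 20.9 in HTO7/HTO8, 11.5 in HTO8/HTO9 and 6.97 in HTO1/HTO9, against 2.52 CPM in HTO4/HTO8.

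ICAM1 and VCAM1, adhesion molecules for leukocytes, led the adhesion list. ICAM1 had 1251 CPM in HTO5/HTO8, 618 in HTO6/HTO8, 417 in HTO7/HTO8, 255 in HTO8/HTO9 and 159 in HTO1/HTO9, against 37.8 CPM in HTO4/HTO8, the HTO5/HTO8 level being the highest of the 24 samples. VCAM1 had 113 CPM in HTO5/HTO8, 47.7 in HTO6/HTO8, 16.6 in HTO7/HTO8, 9.76 in HTO8/HTO9 and 6.15 in HTO1/HTO9, against 2.52 CPM in HTO4/HTO8. CD44 and ITGB1 of the same list did not reach 2-fold, with 603 CPM in HTO5/HTO8, against 441 CPM in HTO4/HTO8 for CD44 and 549 CPM in HTO5/HTO8, against 596 CPM in HTO4/HTO8 for ITGB1. In the list of oxidative defence and metal handling, SOD2, the mitochondrial superoxide dismutase, had 1445 CPM in HTO5/HTO8, 863 in HTO6/HTO8, 418 in HTO7/HTO8, 169 in HTO8/HTO9 and 91.1 in HTO1/HTO9, against 41.2 CPM in HTO4/HTO8, and kept 20.3%. FTH1, the ferritin heavy chain, had 15474 CPM in HTO5/HTO8, 7185 in HTO6/HTO8, 6499.7 in HTO7/HTO8, 6294 in HTO8/HTO9 and 6455 in HTO1/HTO9, against 7517 CPM in HTO4/HTO8, so that HTO5/HTO8 alone stood out by 2-fold while HTO6/HTO8 to HTO1/HTO9 lay at or below HTO4/HTO8. FTL, the light chain, had 9123 CPM in HTO5/HTO8, against 10218 CPM in HTO4/HTO8. MT2A, a metal-binding metallothionein, had 3117 CPM in HTO5/HTO8, 3777 in HTO6/HTO8, 2828 in HTO7/HTO8, 2183 in HTO8/HTO9 and 1976 in HTO1/HTO9, against 1382 CPM in HTO4/HTO8, with the highest level in HTO6/HTO8.

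Among cell death genes, 4 of 16 tested were higher in HTO5/HTO8, where 4.45% of all tested genes were higher, and none was lower. TNFSF10, which encodes the death ligand TRAIL, had 226 CPM in HTO5/HTO8, 143 in HTO6/HTO8, 81.6 in HTO7/HTO8, 27.1 in HTO8/HTO9 and 10.3 in HTO1/HTO9, against 1.68 CPM in HTO4/HTO8. GSDMD, the pore-forming gasdermin D, had 137 CPM in HTO5/HTO8, 101 in HTO6/HTO8, 85.9 in HTO7/HTO8, 72.3 in HTO8/HTO9 and 87.4 in HTO1/HTO9, against 26.04 CPM in HTO4/HTO8, and kept 70.7%. CASP4, an inflammatory caspase, had 229 CPM in HTO5/HTO8 and 143 in HTO1/HTO9, against 63.4 CPM in HTO4/HTO8. BAX, of the mitochondrial pathway, was not called, with 95.2 CPM in HTO5/HTO8, against 137 CPM in HTO4/HTO8. In the integrated stress response list 3 of 14 tested genes were higher in HTO5/HTO8, beside the same 4.45%. None was higher in the other 4 samples. HERPUD1 had 64.6 CPM in HTO5/HTO8 and 26.3 in HTO1/HTO9, against 16.4 CPM in HTO4/HTO8, DDIT4 had 74.7 CPM in HTO5/HTO8 and 17.2 in HTO1/HTO9, against 23.1 CPM in HTO4/HTO8, and ATF4 had 127 CPM in HTO5/HTO8 and 55.8 in HTO1/HTO9, against 57.96 CPM in HTO4/HTO8.

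In single cells the interferon response was spread over nearly all cells of the stronger samples. Each cell was thinned to 3000 UMIs, which kept 1039 of 1048 cells, and its UMIs of CXCR3 ligands, tryptophan enzymes and guanylate-binding proteins were summed. The median number of UMIs per cell was 34 in HTO5/HTO8, 23 in HTO6/HTO8, 16 in HTO7/HTO8, 7 in HTO8/HTO9 and 3 in HTO1/HTO9, against 0 in HTO4/HTO8. The share of cells above the 95th percentile of HTO4/HTO8 was 99.6% in HTO5/HTO8, 98.1% in HTO6/HTO8, 98.5% in HTO7/HTO8, 91.9% in HTO8/HTO9 and 79.9% in HTO1/HTO9, against 5.49% in HTO4/HTO8. The weaker samples thus had lower counts in most cells. For NF-κB regulators and cytokines together the share was 98.7% in HTO5/HTO8, 96.8% in HTO6/HTO8, 72.99% in HTO7/HTO8, 32.9% in HTO8/HTO9 and 17.2% in HTO1/HTO9, against 4.88% in HTO4/HTO8, and the median number of UMIs 16 in HTO5/HTO8, 11 in HTO6/HTO8, 7 in HTO7/HTO8, 3 in HTO8/HTO9 and 2 in HTO1/HTO9, against 2 in HTO4/HTO8. In HTO1/HTO9 the median therefore equalled that of HTO4/HTO8. For MHC class I the share above the same percentile was 93.1% in HTO5/HTO8, 92.4% in HTO6/HTO8, 89.8% in HTO7/HTO8, 82.7% in HTO8/HTO9 and 70.1% in HTO1/HTO9, against 4.27% in HTO4/HTO8. For class II it was 76.8% in HTO5/HTO8, 75.9% in HTO6/HTO8, 64.2% in HTO7/HTO8, 45.7% in HTO8/HTO9 and 29.9% in HTO1/HTO9, against 1.22% in HTO4/HTO8.

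**Figure D4:**
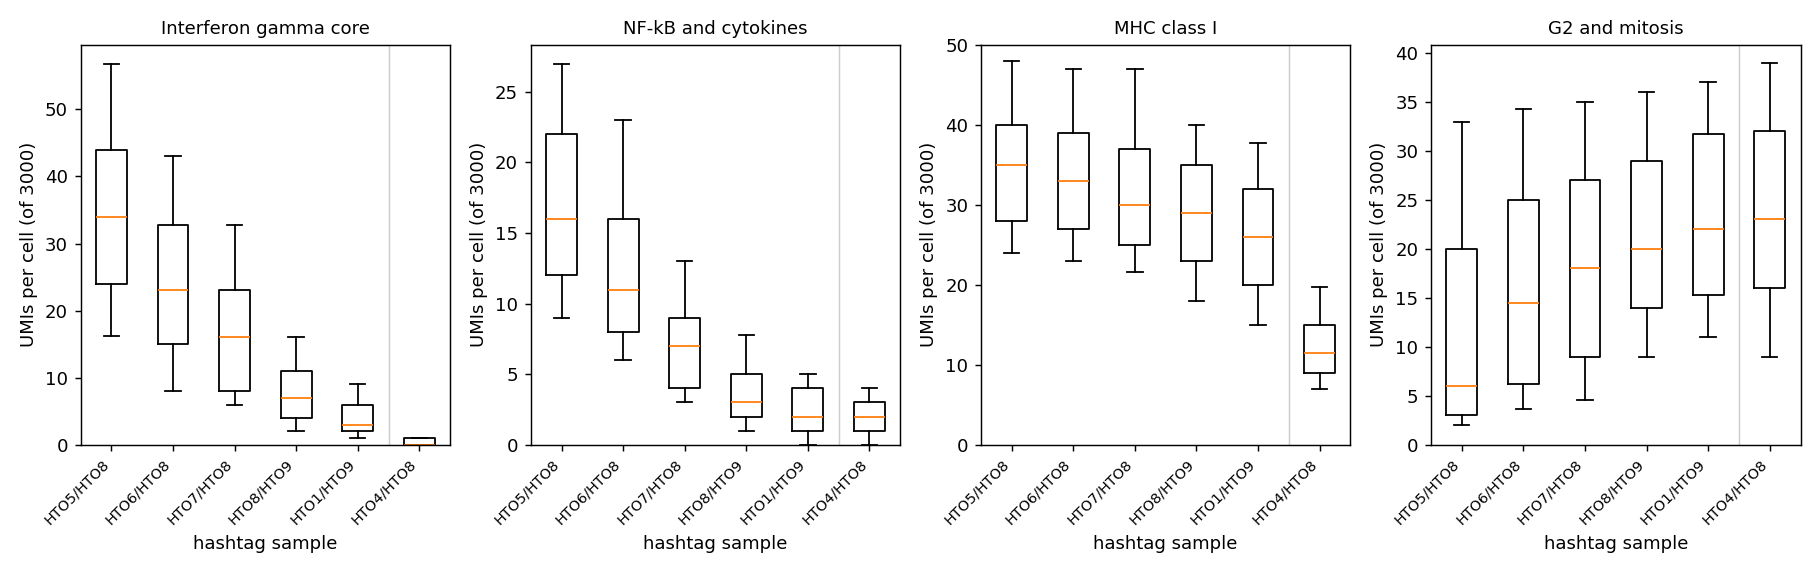
UMIs per cell of 4 gene groups in cells thinned to 3000 UMIs, by hashtag sample: the line is the median, the box spans the 25th to 75th percentile and the whiskers the 10th to 90th. The interferon gamma core has a median of 34 UMIs in HTO5/HTO8 and 3 in HTO1/HTO9, against 0 in HTO4/HTO8, and G2 and mitosis genes a median of 6 in HTO5/HTO8, against 23 in HTO4/HTO8.

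Acute-phase genes were less even between cells. The share above the 95th percentile of HTO4/HTO8 was 63.5% in HTO5/HTO8, 54.4% in HTO6/HTO8, 29.9% in HTO7/HTO8, 15.6% in HTO8/HTO9 and 9.77% in HTO1/HTO9, against 2.44% in HTO4/HTO8. Within HTO5/HTO8 the 10th percentile cell had 1 UMI of these genes and the 90th percentile 20.8. By single genes, IDO1 had a UMI in 93.1% of cells in HTO5/HTO8, 87.97% in HTO6/HTO8, 78.1% in HTO7/HTO8, 59.5% in HTO8/HTO9 and 33.9% in HTO1/HTO9, against 1.22% in HTO4/HTO8 after thinning. Before thinning IDO1 was seen in 98.7% of cells in HTO5/HTO8, 96.9% in HTO6/HTO8, 94.2% in HTO7/HTO8, 86.8% in HTO8/HTO9 and 61.4% in HTO1/HTO9, against 13.3% in HTO4/HTO8. For CXCL11 the thinned shares were 87.98% of cells in HTO5/HTO8, 81.01% in HTO6/HTO8, 61.3% in HTO7/HTO8, 32.4% in HTO8/HTO9 and 5.75% in HTO1/HTO9, against 1.83% in HTO4/HTO8. For CXCL1 they were 35.2% of cells in HTO5/HTO8, 36.1% in HTO6/HTO8, 23.4% in HTO7/HTO8, 3.47% in HTO8/HTO9 and 1.72% in HTO1/HTO9, against 2.44% in HTO4/HTO8, and for LTB 21.03% of cells in HTO5/HTO8, 8.23% in HTO6/HTO8, 2.92% in HTO7/HTO8, 1.73% in HTO8/HTO9 and 0% in HTO1/HTO9, against 0% in HTO4/HTO8. Free RNA in droplets can add UMIs to all samples of a pool, and how much of any share came from it was not tested. At HTO1/HTO9, the share for CXCL1 (1.72%) was no higher than in HTO4/HTO8 (2.44%).

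Cell cycle genes were lowest in HTO5/HTO8, with smaller differences in HTO6/HTO8 and HTO7/HTO8. S phase genes summed to 1453 CPM in HTO5/HTO8, 2466 in HTO6/HTO8, 2919 in HTO7/HTO8, 3201 in HTO8/HTO9 and 3168 in HTO1/HTO9, against 3341 CPM in HTO4/HTO8. Of 34 tested, 19 were lower in HTO5/HTO8, 1 in HTO6/HTO8 and none in the other 3. G2 and mitosis genes summed to 4551 CPM in HTO5/HTO8, 5897 in HTO6/HTO8, 6603 in HTO7/HTO8, 7408 in HTO8/HTO9 and 8138 in HTO1/HTO9, against 8652 CPM in HTO4/HTO8. Of 53 tested, 13 were lower in HTO5/HTO8, 2 in HTO6/HTO8 and none in the other 3. Among all genes tested, 3.74% were lower in HTO5/HTO8 and 0.921% in HTO6/HTO8. The medians of these lists in HTO5/HTO8, -1.08 for S phase and -0.82 for G2 and mitosis, were beyond the -0.22 of all genes tested. MCM4, a subunit of the replicative helicase, had 62.4 CPM in HTO5/HTO8, 138 in HTO6/HTO8, 185 in HTO7/HTO8, 190.3 in HTO8/HTO9 and 182 in HTO1/HTO9, against 218 CPM in HTO4/HTO8. RRM2, a ribonucleotide reductase subunit, had 72.1 CPM in HTO5/HTO8, 143 in HTO6/HTO8, 172 in HTO7/HTO8, 184 in HTO8/HTO9 and 226 in HTO1/HTO9, against 228 CPM in HTO4/HTO8. HIST1H4C, a replication-dependent histone H4 gene, had 281 CPM in HTO5/HTO8, 410.3 in HTO6/HTO8, 515 in HTO7/HTO8, 569 in HTO8/HTO9 and 769 in HTO1/HTO9, against 918 CPM in HTO4/HTO8. CDC20, an activator of the anaphase complex, had 104 CPM in HTO5/HTO8 and 261 in HTO1/HTO9, against 272 CPM in HTO4/HTO8.

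Not every cell of HTO5/HTO8 was low in cell cycle genes. The share of cells below the 10th percentile of HTO4/HTO8 for G2 and mitosis was 58.8% in HTO5/HTO8, 32.9% in HTO6/HTO8, 21.2% in HTO7/HTO8, 9.83% in HTO8/HTO9 and 6.32% in HTO1/HTO9, against 9.15% in HTO4/HTO8. For S phase it was 57.5% in HTO5/HTO8, 24.1% in HTO6/HTO8, 16.1% in HTO7/HTO8, 5.78% in HTO8/HTO9 and 6.32% in HTO1/HTO9, against 4.88% in HTO4/HTO8. HTO8/HTO9 and HTO1/HTO9 were thus close to HTO4/HTO8, while most cells of HTO5/HTO8 were below and HTO6/HTO8 and HTO7/HTO8 lay between. Depth was equal by thinning, while the mitochondrial share moved with the order, and its part in these cell shares was not tested. In cells of 2000 or more genes and no more than 10% mitochondrial UMIs, the log2 difference of CDC20 in HTO5/HTO8 was -0.70, against -1.31 in all cells, and that of TPX2, a spindle assembly factor, -0.45, against -1.07.

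Other lower genes were led by FABP4, a fatty acid-binding protein, with 7.84 CPM in HTO5/HTO8, 12.4 in HTO6/HTO8, 17.2 in HTO7/HTO8, 27.5 in HTO8/HTO9 and 22.2 in HTO1/HTO9, against 118 CPM in HTO4/HTO8. FABP4 was the only gene called lower in all 5 samples, and its 118 CPM in HTO4/HTO8 lay above every other hashtag sample of the pool. The 18 samples outside the series ranged from 1.33 to 96.1 CPM for FABP4. AREG, an EGF receptor ligand, had 84.8 CPM in HTO5/HTO8, 162 in HTO6/HTO8, 209 in HTO7/HTO8, 305 in HTO8/HTO9 and 359 in HTO1/HTO9, against 511 CPM in HTO4/HTO8, a level that was 6.03 (5.23 to 6.98) times higher in HTO4/HTO8 than in HTO5/HTO8. F3, the tissue factor that starts clotting, had 8.22 CPM in HTO5/HTO8, 15.4 in HTO6/HTO8, 41.3 in HTO7/HTO8, 63.4 in HTO8/HTO9 and 70.2 in HTO1/HTO9, against 77.3 CPM in HTO4/HTO8. DKK1, a secreted Wnt inhibitor, had 8.22 CPM in HTO5/HTO8, 20.9 in HTO6/HTO8, 35.96 in HTO7/HTO8, 42.1 in HTO8/HTO9 and 54.6 in HTO1/HTO9, against 71.8 CPM in HTO4/HTO8. THBS1, a matrix glycoprotein, had 10.5 CPM in HTO5/HTO8, 18.9 in HTO6/HTO8, 32.2 in HTO7/HTO8, 48.3 in HTO8/HTO9 and 48 in HTO1/HTO9, against 78.95 CPM in HTO4/HTO8. NR2F2, a nuclear receptor, had 51.9 CPM in HTO5/HTO8, 74.1 in HTO6/HTO8, 104 in HTO7/HTO8, 147 in HTO8/HTO9 and 165 in HTO1/HTO9, against 220.1 CPM in HTO4/HTO8. ODC1, the first enzyme of polyamine synthesis, had 76.9 CPM in HTO5/HTO8, 134 in HTO6/HTO8, 184 in HTO7/HTO8, 195 in HTO8/HTO9 and 203 in HTO1/HTO9, against 313 CPM in HTO4/HTO8. AREG, F3 and ODC1 were each lowest of all 24 samples in HTO5/HTO8. For lower genes little of the difference was left at the weak end. The median part of the HTO5/HTO8 difference kept by the 215 genes was 53.9% in HTO6/HTO8, 33.9% in HTO7/HTO8, 23.5% in HTO8/HTO9 and 16.1% in HTO1/HTO9.

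**Figure D5:**
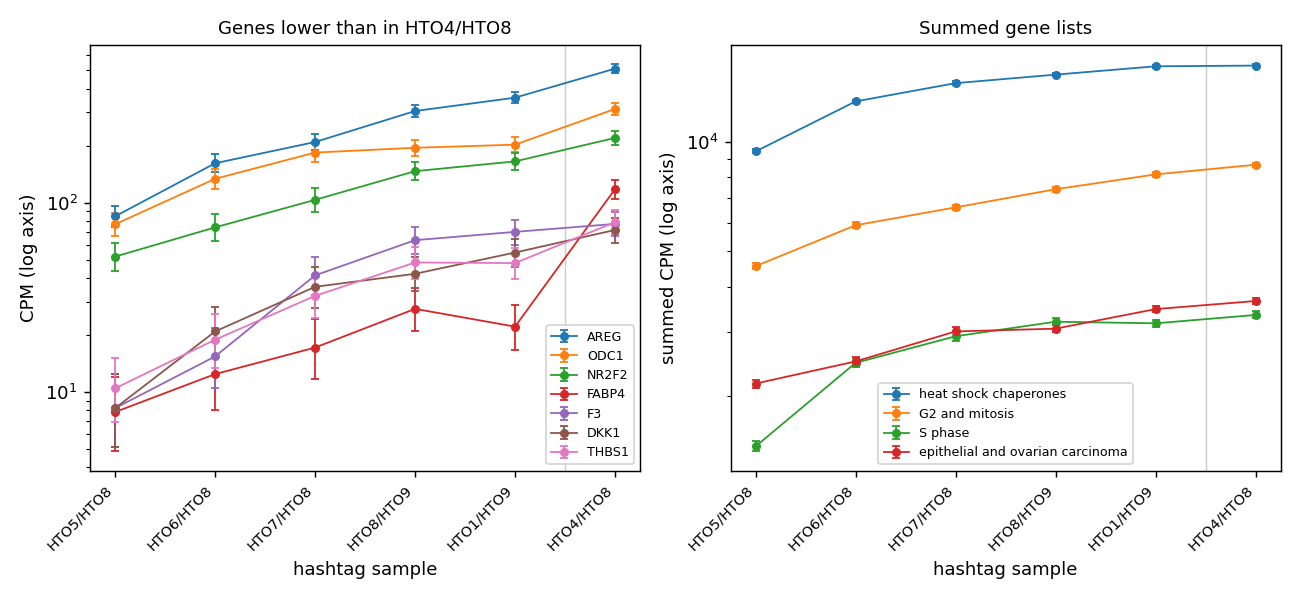
Left, CPM (log axis) of 7 genes that were lower in HTO5/HTO8 than in HTO4/HTO8. Right, summed CPM (log axis) of 4 gene lists. Bars are exact Poisson intervals of 95%. AREG runs up to 359 CPM in HTO1/HTO9, against 511 CPM in HTO4/HTO8, and S phase genes differ most between HTO5/HTO8 and HTO6/HTO8.

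KRT19, a simple epithelial keratin, was lower in HTO5/HTO8 and HTO6/HTO8, with 79.2 CPM in HTO5/HTO8, 74.1 in HTO6/HTO8, 145 in HTO7/HTO8, 140.2 in HTO8/HTO9 and 208 in HTO1/HTO9, against 273 CPM in HTO4/HTO8. Heat shock chaperones summed to 9414 CPM in HTO5/HTO8, 12922 in HTO6/HTO8, 14507 in HTO7/HTO8, 15310.4 in HTO8/HTO9 and 16139.7 in HTO1/HTO9, against 16215 CPM in HTO4/HTO8, yet of 15 tested only HSP90AA1 was called lower, with 3156 CPM in HTO5/HTO8, against 6425 CPM in HTO4/HTO8. No member was called among cytosolic ribosomal proteins, 0 of 59 in every sample, and mitochondrially encoded genes, 0 of 13. Cholesterol synthesis had 1 of 10 called, MVD in HTO6/HTO8. Hypoxia and glycolysis had 2 higher and 2 lower of 17 in HTO5/HTO8, where 4.45% of all tested genes were higher and 3.74% lower. Mitochondrially encoded genes summed to 125488 CPM in HTO5/HTO8, 116697 in HTO6/HTO8, 114643 in HTO7/HTO8, 109788 in HTO8/HTO9 and 103167 in HTO1/HTO9, against 97607 CPM in HTO4/HTO8.

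KRT81, a hair keratin, did not follow the series. It had 38.5 CPM in HTO5/HTO8, 52.2 in HTO6/HTO8, 182 in HTO7/HTO8, 62.1 in HTO8/HTO9 and 98.05 in HTO1/HTO9, against 4.62 CPM in HTO4/HTO8. Cells with 5 or more UMIs of KRT81, MTAP and CDKN2A numbered 3 in HTO5/HTO8, 2 in HTO6/HTO8, 5 in HTO7/HTO8, 3 in HTO8/HTO9 and 4 in HTO1/HTO9, against 0 of 165 in HTO4/HTO8, which allows a share of up to 1.82% with 3 counts as the limit of a count of 0. Without these cells the log2 difference of KRT81 lay between -0.01 and 0.17 in the 5 samples, which the choice of cells by KRT81 itself brings about. S100A9, an inflammatory calcium-binding protein, had 18.7 CPM in HTO5/HTO8, 12.9 in HTO6/HTO8, 54.7 in HTO7/HTO8, 20.8 in HTO8/HTO9 and 32 in HTO1/HTO9, against 0.420 CPM in HTO4/HTO8, and its log2 difference in HTO7/HTO8 was 2.64 with these cells and 0.30 without them.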

How the data were processed

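Gene-expression UMIs and hashtag tags of 1 pool of OVCAR5 cells were deposited as a matrix of raw UMI counts per gene, tag and barcode. The authors made these counts with Cell Ranger on GRCh38: version 5.0.1 per the file headers, and 2.1.1 per the submitters' processing notes. Barcodes were kept with 1000 genes or more and no more than 20% mitochondrial UMIs, and assigned to the pair of top tags where both reached 3 times the third tag, in pairs with at least 100 barcodes. This left 5298 cells of 6408 past the filters on genes and mitochondrial UMIs and 10660 deposited. Barcodes with 3 high tags were dropped by this margin, no doublet caller was run, and no barcode occurred in 2 samples.

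Counts were summed over the cells of a hashtag sample and expressed as CPM. The sample totals of 1863154 to 2677857 UMIs put a level of 3 counts at 1.12 to 1.61 CPM. Differences were taken on log2(CPM + 10). Levels have exact Poisson intervals, ratios the matching conditional binomial interval and shares exact binomial (Clopper-Pearson) intervals, all at 95% and for counting error only. A count of 0 was given a limit of 3 counts. With 1 culture per sample, no test between cultures was made. For per-cell values each cell was thinned to 3000 UMIs, leaving out 9 cells. The threshold rule and the intervals were tested on simulated Poisson counts, which hold no variation between cells or cultures beyond counting error.

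Genes were named by rule: the 4 markers, the 25 with the widest range over the 6 samples, the 15 lowest differences in HTO5/HTO8, up to 4 per list by mean and by range, and up to 8 per class of path. IL18, IFNGR2 and single cell type markers were named outside it, after their values were seen. The samples, their order and the lists were chosen with earlier results of these data known. Gene positions are from GENCODE 29, matched by ID for 34616 of 36602 genes, and promoters from RefSeq GRCh38.p14. Alternatives changed the pseudocount, the filters on genes, cells and tags, the scaling, and depth. Python 3.11.15, numpy 2.4.6, scipy 1.17.1 and pandas 2.3.3 were used. Results that need items withheld for evaluation are not reported here.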

Additional observations from a re-analysis of the deposited data

Results flagged for a closer look

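Katushka, the sequence of a far-red fluorescent protein that was added to the reference and is outside the comparisons above, had UMIs in the 5 samples and none in HTO4/HTO8. HTO5/HTO8 had 7.469 CPM (20 UMIs), HTO6/HTO8 9.45 CPM (19 UMIs), HTO7/HTO8 11.27 CPM (21 UMIs) and HTO8/HTO9 4.435 CPM (10 UMIs), and these levels were above the level in HTO4/HTO8, where 0 UMIs allow up to 1.26 CPM with 3 counts as the limit, or 1.55 CPM by the exact Poisson interval. HTO1/HTO9 had 2.87 CPM (7 UMIs). The 18 samples outside the series ranged from 0 to 10.997 CPM, so that a level of this kind was not particular to the 5 samples.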

How the results depend on the processing

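All counts of called genes were recomputed under 11 alternatives; 66 of 110 stayed within 1.5 times the reported count. The order of the 5 samples in the number of higher genes was the same under each of them. Most that moved were counts of lower genes. With a pseudocount of 1 CPM, lower genes numbered 440 in HTO5/HTO8, where 322 were higher, 117 in HTO6/HTO8, 29 in HTO7/HTO8, 8 in HTO8/HTO9 and 4 in HTO1/HTO9, and higher genes 132 in HTO1/HTO9. With 50 CPM, higher genes numbered 142, 106, 83, 60 and 37 from HTO5/HTO8 to HTO1/HTO9 in order, and lower genes 29, 7, 2 and 1 from HTO5/HTO8 to HTO8/HTO9. With no filter on low genes, lower genes numbered 17 in HTO7/HTO8 and 6 in HTO8/HTO9. Among genes of at least 100 CPM, which are fewer, higher genes numbered 91, 80, 68, 59 and 46 and lower genes 57, 13, 2, 0 and 0 in the same order. With a tag margin of 6, lower genes numbered 17 in HTO7/HTO8, 6 in HTO8/HTO9 and 2 in HTO1/HTO9. With cells of 2000 or more genes and no more than 10% mitochondrial UMIs, they numbered 103 in HTO6/HTO8, 48 in HTO7/HTO8, 12 in HTO8/HTO9 and 4 in HTO1/HTO9. With median-of-ratios size factors they numbered 101, 33, 3 and 1 from HTO5/HTO8 to HTO8/HTO9. Without cells with 5 or more UMIs of KRT81, MTAP and CDKN2A they numbered 12 in HTO7/HTO8. With each cell thinned to 3000 UMIs, they numbered 402, 167, 108, 58 and 39 from HTO5/HTO8 to HTO1/HTO9, with 287 higher in HTO5/HTO8. Lower genes thus outnumbered higher ones there under these 2 settings. The cause was not tested, except that fewer UMIs or genes enter under the stricter filters.

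Of 9735 log2 differences of named genes, 1526 moved beyond their counting interval. A turn of sign was counted only where the reported value was 1 or more in either direction. By this count 1 turned: KRT81 in HTO8/HTO9, at -0.007 without the cells with KRT81, MTAP and CDKN2A and 2.30 with them. Those cells were chosen on KRT81 itself. Of 1485 list values, 305 moved and, by the same count, 0 turned. Turns of smaller values were not counted. Both totals include the settings without a filter on low genes and with genes of at least 100 CPM. These change which genes are tested but not the values, so nothing could move under them. Under the stricter cell filter, NDRG1 in HTO5/HTO8 had a log2 difference of 0.17, against 1.17 in all cells, and CXCL9 4.17, against 5.37. No paired analysis was possible because each condition was 1 culture and no test was made. Depth limits single genes to levels above about 1.12 to 1.61 CPM.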

Other observations

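Of 11 immediate early genes tested, 2 were higher in HTO5/HTO8 and in HTO6/HTO8, where 4.45% and 3.84% of all tested genes were higher. In HTO7/HTO8 1 was higher, and in HTO8/HTO9 and HTO1/HTO9 0. Of 6 genes of growth factor signalling, HBEGF was higher and AREG lower in HTO5/HTO8 and HTO6/HTO8. The list of growth factor genes summed to a lower level in HTO5/HTO8 than in any other of the 24 hashtag samples. Its median log2 difference there was only 0.02, and AREG, whose levels are given above, was the only member called lower.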
